A study of Mus musculus with 11 samples.

Results

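Respiratory complex I, the NADH:ubiquinone oxidoreductase of the inner mitochondrial membrane, was followed through the genes that encode its nuclear subunits. Members were all genes whose annotated symbol begins with Ndufa, Ndufb, Ndufc, Ndufs or Ndufv, leaving out the assembly factors whose symbols begin with Ndufaf. This gave 36 of the 19057 genes with a probe on the array, 34 of them subunits placed in complex I, the others being Ndufa4, now counted with complex IV, and the transcribed pseudogene Ndufs5-ps. The subunit genes Ndufs5 and Ndufb1 and the Ndufa4 paralogue Ndufa4l2 were among those not analysed here.

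Expression was measured in 11 mammary tumours that arose in female mice aged 12 weeks, with 1 array per tumour. The 5 PyMT/SIRT6 tumours came from mice that carry both the polyoma middle T (PyMT) transgene and the Sirt6BAC allele, which overexpresses SIRT6, and the 6 PyMT tumours from mice that carry the PyMT transgene and no Sirt6BAC allele. Every tumour thus carried the oncogene, whose driving promoter the labels do not name. Values are log2 probe intensities on Illumina Mouse WG-6 v2.0 arrays, and a difference is PyMT/SIRT6 minus PyMT with limma's standard error.

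Complex I takes electrons from NADH, passes them along iron-sulfur clusters to ubiquinone and pumps protons across the membrane. Its matrix arm is made of an N module, which oxidises NADH, and a Q module, which reduces ubiquinone. Its membrane arm is built around the mitochondrially encoded subunits ND1, ND2, ND4 and ND5, which give their names to the ND1, ND2, ND4 and ND5 modules. The core subunits do the chemistry, and the supernumerary subunits surround them and serve assembly and stability. The placing of Ndufa6, Ndufa7, Ndufa9 and Ndufa11 in a module differs between accounts of the complex.

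The labels were first checked on Sirt6, which was 0.61 ± 0.09 (SE) higher in PyMT/SIRT6 tumours, with every PyMT/SIRT6 array above every PyMT array. Its limma p after Benjamini-Hochberg adjustment was 0.057, just above the threshold used here, so Sirt6 itself was not called. A lack of calls is therefore no evidence that smaller differences are absent. Skeletal muscle markers, which a mammary tumour cell does not express, had list means (19 genes) of 9.94, 7.71, 7.40, 10.66 and 11.54 in PyMT/SIRT6 replicates 1 to 5, against 7.38 to 11.61 in PyMT tumours, where replicate 5 was the highest. Luminal epithelial markers (10 genes) averaged 9.91 ± 0.12 in PyMT/SIRT6 tumours (SD, n = 5) and 9.97 ± 0.28 in PyMT tumours (SD, n = 6). B and plasma cell markers (3 genes) lay near the array median in all tumours, at 7.21 to 7.32 in PyMT/SIRT6 and 7.20 to 7.30 in PyMT tumours. These are bulk tumours, in which fewer cells of a type and less RNA per cell cannot be told apart. Replicate 2 of each genotype stood apart in the complex I genes, as described first.

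The complex I genes went up and down together from tumour to tumour, and this variation ran within both genotypes. The mean of the 35 members that passed the filter on dim probes was 11.44, 11.12, 11.48, 11.53 and 11.51 in PyMT/SIRT6 replicates 1 to 5. It was 11.36, 11.16, 11.42, 11.41, 11.33 and 11.41 in PyMT replicates 1 to 6. Thus 4 of the 5 PyMT/SIRT6 tumours lay above all PyMT tumours, while PyMT/SIRT6 replicate 2 lay below all of them and PyMT replicate 2 was the lowest of its own group. In 24 of the 35 members (68.6%) these same arrays were the lowest pair of all 11, which held for 5.35% of all tested features. They were the highest pair in 0 members and in 849 of the 14726 tested features, where 788 had them lowest. The arrays were thus extreme in both directions in features outside complex I too. Since they were singled out from these values, the shares are a description.

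**Figure D1:**
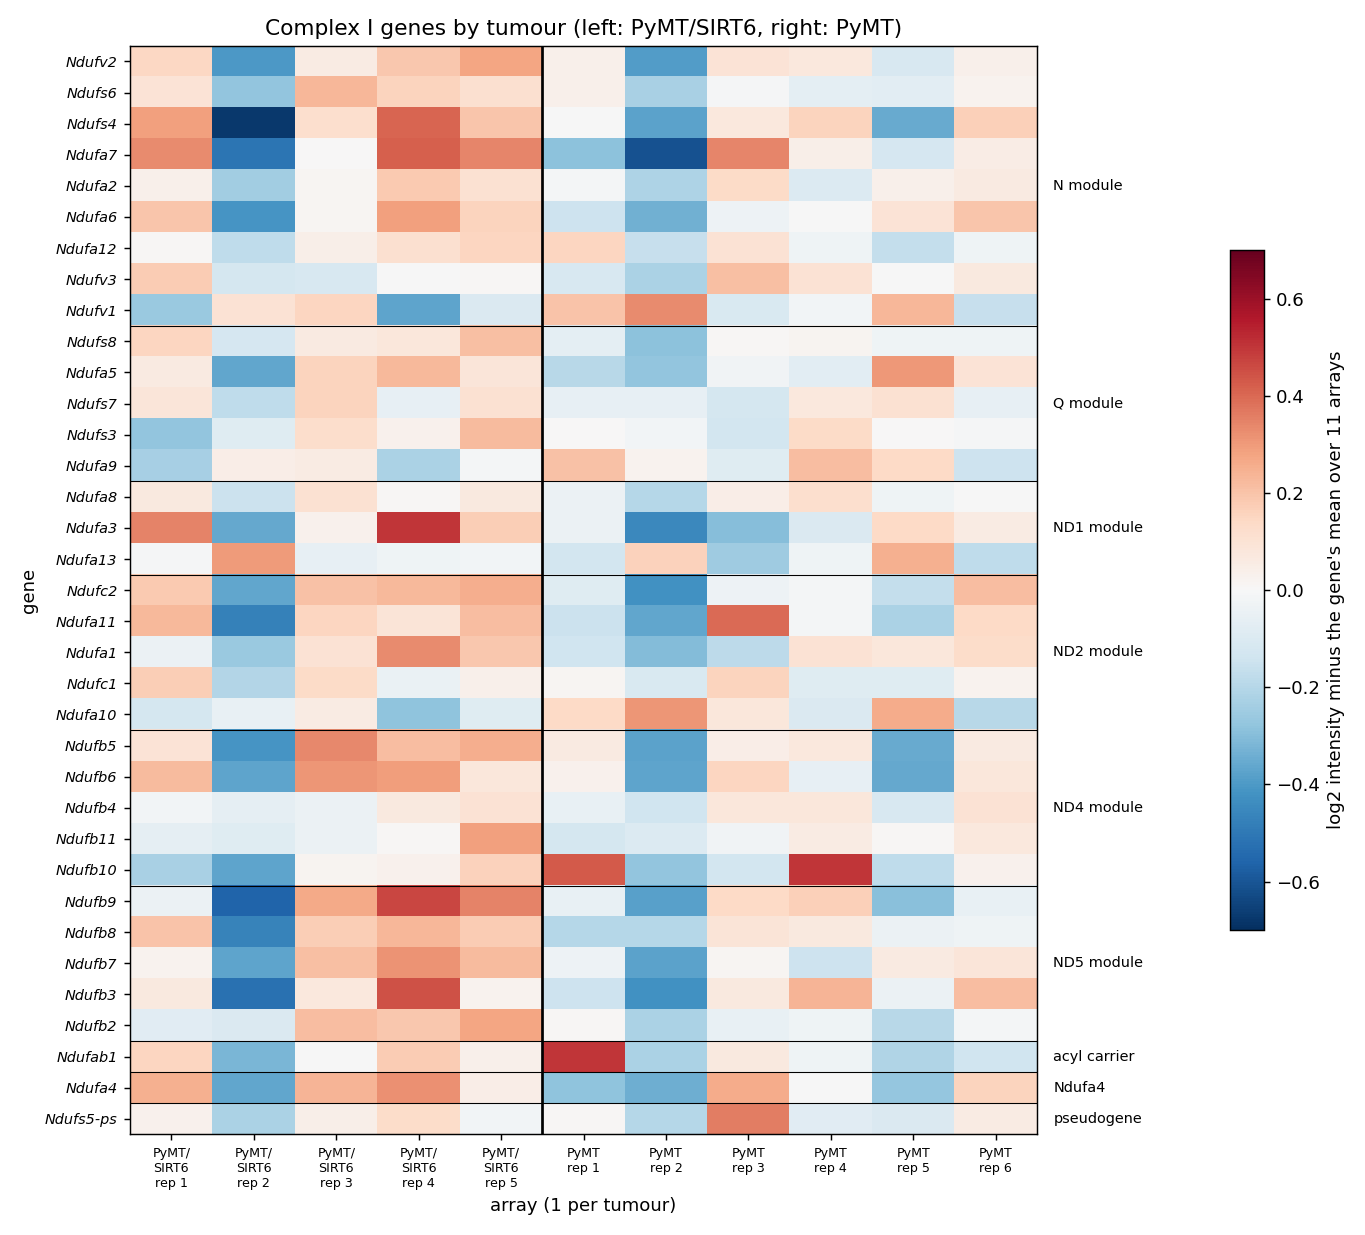
Log2 intensity of each tested complex I gene (rows, grouped by module) in each tumour (columns, PyMT/SIRT6 left and PyMT right), as the deviation from that gene's mean over the 11 arrays. The columns of PyMT/SIRT6 replicate 2 and PyMT replicate 2 are blue for most genes, and Ndufv1, Ndufa10, Ndufa9 and Ndufa13 do not share this pattern.

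After the genotype means were taken out, the median Pearson correlation over the 595 pairs of tested members was 0.56 across the 11 arrays, with 21.2% of pairs below 0 and 56.8% above 0.5. Over all pairs of the 14726 tested features the median was 0, and 8.46% of those pairs lay above the median of the complex I pairs. All pairs share the same 11 arrays and their normalization, so these are descriptions without a test. The low arrays carry part of the value: without PyMT/SIRT6 replicate 2 the median was 0.365, and without PyMT replicate 2 it was 0.485. Pairs within a submodule had a median of 0.65 and pairs from different submodules 0.56. By the same measure the assembly factors stood at 0.37 (17 genes), complex II at 0.29 (3 genes), complex III at 0.12 (7 genes), complex IV at 0.22 (8 genes) and complex V at 0.24 (14 genes).

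Co-variation differed between the modules. In the ND5 module, the distal end of the membrane arm, the 5 members Ndufb2, Ndufb3, Ndufb7, Ndufb8 and Ndufb9 had a median pairwise correlation of 0.82 and no pair below 0. The N module with 9 tested members had 0.74 and the ND4 module 0.58. The Q module stood at 0.34, the ND2 module at 0.30 and the ND1 module, with 3 members, at −0.33. The 5 tested core subunits had a median of 0.23 among themselves, and the 29 genes classed as supernumerary, Ndufa4 among them, 0.60.

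Against the mean of all other members, 31 members correlated above 0 and 17 above 0.8, as the plot of each gene's correlation shows. Ndufv2, an iron-sulfur subunit of the N module, was the closest follower (r = 0.97). Its level was 12.51, 11.96, 12.42, 12.55 and 12.64 in PyMT/SIRT6 replicates 1 to 5, against 11.97 to 12.46 with a median of 12.40 in PyMT tumours. Ndufc2 of the ND2 module (r = 0.93), Ndufb9, an LYR-motif protein of the ND5 module (0.93), Ndufs6, a zinc-binding subunit of the N module (0.92), and Ndufs4, an N module subunit whose loss causes a Leigh-like disease in mice (0.92), came next. Ndufs4 had the widest spread of these, at 12.48, 11.52, 12.31, 12.60 and 12.39 in PyMT/SIRT6 tumours and from 11.82 to 12.36 (median 12.23) in PyMT tumours. Its 3 further probes followed the kept one with correlations of 0.91 to 0.97 over the 11 arrays.

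**Figure D2:**
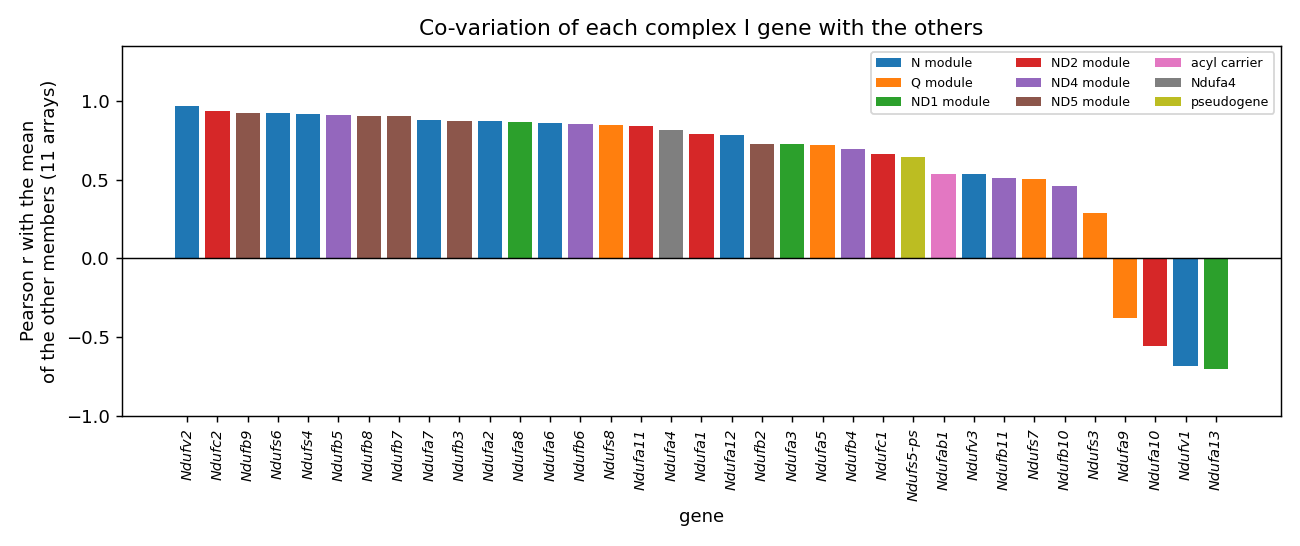
Pearson correlation of each tested complex I gene (x axis, coloured by module) with the mean of the other tested members over the 11 arrays. Bars run from 0.97 for Ndufv2 to −0.70 for Ndufa13, with 4 genes below 0.

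The other 4 members went the other way, and they belong to different modules: Ndufa13 (r = −0.70 with the mean of the others), Ndufv1 (−0.68), Ndufa10 (−0.56) and Ndufa9 (−0.38). They were grouped after their values were seen, and each has only 1 probe, so no further probe could be compared. Ndufv1 is the core subunit that holds FMN and binds NADH, Ndufa10 a supernumerary subunit with a kinase-like fold beside ND2, Ndufa9 a subunit near the ubiquinone site and Ndufa13 the protein also known as GRIM-19. Ndufv1 had 11.68, 12.04, 12.09, 11.57 and 11.84 in PyMT/SIRT6 tumours and 11.78 to 12.27 (median 12.03) in PyMT tumours, where replicate 2, low in most members, was the highest. Ndufa13 was at 13.60 in PyMT/SIRT6 replicate 2 and at 13.24 to 13.29 in the other PyMT/SIRT6 tumours, against 13.05 to 13.55 in PyMT tumours. Among themselves these 4 correlated positively in all pairs, from 0.40 for Ndufa9 with Ndufa13 to 0.86 for Ndufv1 with Ndufa10. Against the remaining 31 members Ndufv1 was below 0 with 29, Ndufa10 with 30, Ndufa9 with 27 and Ndufa13 with 31.

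The promoter windows of the 3 N module genes among the closest followers are shown so that the sequences can be set beside the pattern. Those of 3 of the genes that went the other way follow, with Ndufa13 left out. All are RefSeq windows on GRCm38.p6 from 250 bases before to 50 after the annotated start. They are written 5′ to 3′ on the gene's strand, and capitals mark motif matches.
Ndufv2, chr17:66101510-66101809, minus strand: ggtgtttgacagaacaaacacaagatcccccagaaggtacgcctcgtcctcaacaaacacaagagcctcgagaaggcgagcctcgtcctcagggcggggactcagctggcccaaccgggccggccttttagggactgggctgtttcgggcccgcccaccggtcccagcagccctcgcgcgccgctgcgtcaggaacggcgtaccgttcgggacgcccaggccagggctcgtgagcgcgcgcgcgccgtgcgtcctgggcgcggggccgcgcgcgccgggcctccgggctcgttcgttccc
Ndufs6, chr13:73328433-73328732, minus strand: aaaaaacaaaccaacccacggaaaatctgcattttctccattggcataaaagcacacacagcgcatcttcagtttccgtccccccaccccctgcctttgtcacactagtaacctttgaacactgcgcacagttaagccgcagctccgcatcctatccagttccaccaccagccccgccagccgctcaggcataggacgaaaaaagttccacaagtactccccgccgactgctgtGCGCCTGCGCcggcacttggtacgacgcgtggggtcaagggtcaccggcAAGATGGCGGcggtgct
Ndufs4, chr13:114388045-114388344, minus strand: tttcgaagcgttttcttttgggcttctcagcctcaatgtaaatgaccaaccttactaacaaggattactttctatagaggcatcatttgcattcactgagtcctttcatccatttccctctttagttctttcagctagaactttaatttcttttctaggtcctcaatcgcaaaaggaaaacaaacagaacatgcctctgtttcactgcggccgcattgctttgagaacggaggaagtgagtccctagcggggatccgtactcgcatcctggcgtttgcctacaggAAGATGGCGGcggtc
Ndufv1, chr19:4012706-4013005, minus strand: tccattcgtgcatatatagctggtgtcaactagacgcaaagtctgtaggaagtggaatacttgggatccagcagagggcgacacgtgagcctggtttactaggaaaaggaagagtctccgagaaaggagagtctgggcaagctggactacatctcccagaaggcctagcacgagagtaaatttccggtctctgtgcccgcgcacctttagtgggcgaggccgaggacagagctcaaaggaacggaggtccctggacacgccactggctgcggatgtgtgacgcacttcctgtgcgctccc
Ndufa10, chr1:92473709-92474008, minus strand: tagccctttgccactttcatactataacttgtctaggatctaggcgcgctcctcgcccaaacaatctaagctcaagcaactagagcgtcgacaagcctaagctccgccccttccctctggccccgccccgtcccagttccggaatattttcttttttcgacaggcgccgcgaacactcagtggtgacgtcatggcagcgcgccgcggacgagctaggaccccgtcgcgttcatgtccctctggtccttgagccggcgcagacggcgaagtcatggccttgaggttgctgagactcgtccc
Ndufa9, chr6:126849095-126849394, minus strand: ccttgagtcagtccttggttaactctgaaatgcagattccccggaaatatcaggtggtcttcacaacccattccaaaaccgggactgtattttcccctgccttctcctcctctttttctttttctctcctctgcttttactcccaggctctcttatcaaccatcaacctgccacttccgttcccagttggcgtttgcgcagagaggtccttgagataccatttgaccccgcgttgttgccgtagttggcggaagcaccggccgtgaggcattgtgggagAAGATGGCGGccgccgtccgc

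Motifs were searched on both strands in the windows of the 32 members that RefSeq's table matched. The NRF1 motif, whose reverse complement is the first run of capitals in the Ndufs6 window, with any base allowed at the fifth letter of that run, stood in the windows of 6 members (18.8%) and of 5.19% of all 27025 genes with a window. NRF1 is a factor known to bind promoters of respiratory chain genes. The YY1 motif, the second run of capitals in that window, stood in 4 members (12.5%), Ndufs4, Ndufs6, Ndufs7 and Ndufa9, and in 0.995% of all genes, in each of these members just after the start. The ETS motif CCGGAAG, the core bound by GABP, stood in 4 members (12.5%) and 9.93% of all genes, and the ERR motif TCAAGGTCA in 0 members and 0.466% of all genes. Ndufs6 held both the NRF1 and the YY1 motif, while the windows of Ndufv2, Ndufv1 and Ndufa10 held none of these spellings. The window of Ndufa13, not shown, held none of them either. A match is a run of letters and no measure of binding. The YY1 spelling stood in the windows of Ndufs4 and Ndufs6, which follow the other members, and in that of Ndufa9, which does not.

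The genotype comparison asks whether tumours with the Sirt6BAC allele express complex I genes at another level. No member passed the threshold in limma with Benjamini-Hochberg adjustment over all 14726 tested features: 0 of 35 members were called, with adjusted p from 0.983 to 0.997, where 0.0136% of all features were called higher and 0% lower. At an unadjusted p under 0.05 there was 1 member, Ndufb2, which was higher, against 4.43% of all features (2.04% higher and 2.39% lower). The groups overlapped in all 35 members, where 0.292% of all features had every PyMT/SIRT6 array above every PyMT array and 0.197% every one below. The differences were small and mostly positive, from −0.18 to 0.25 with a median of 0.06, where the median of all features was −0.01. Of the 35 members 29 were higher and 6 lower (82.9% higher), while 46.9% of all features were higher. Because the members move together on the same arrays, this count is no set of independent observations.

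**Figure D3:**
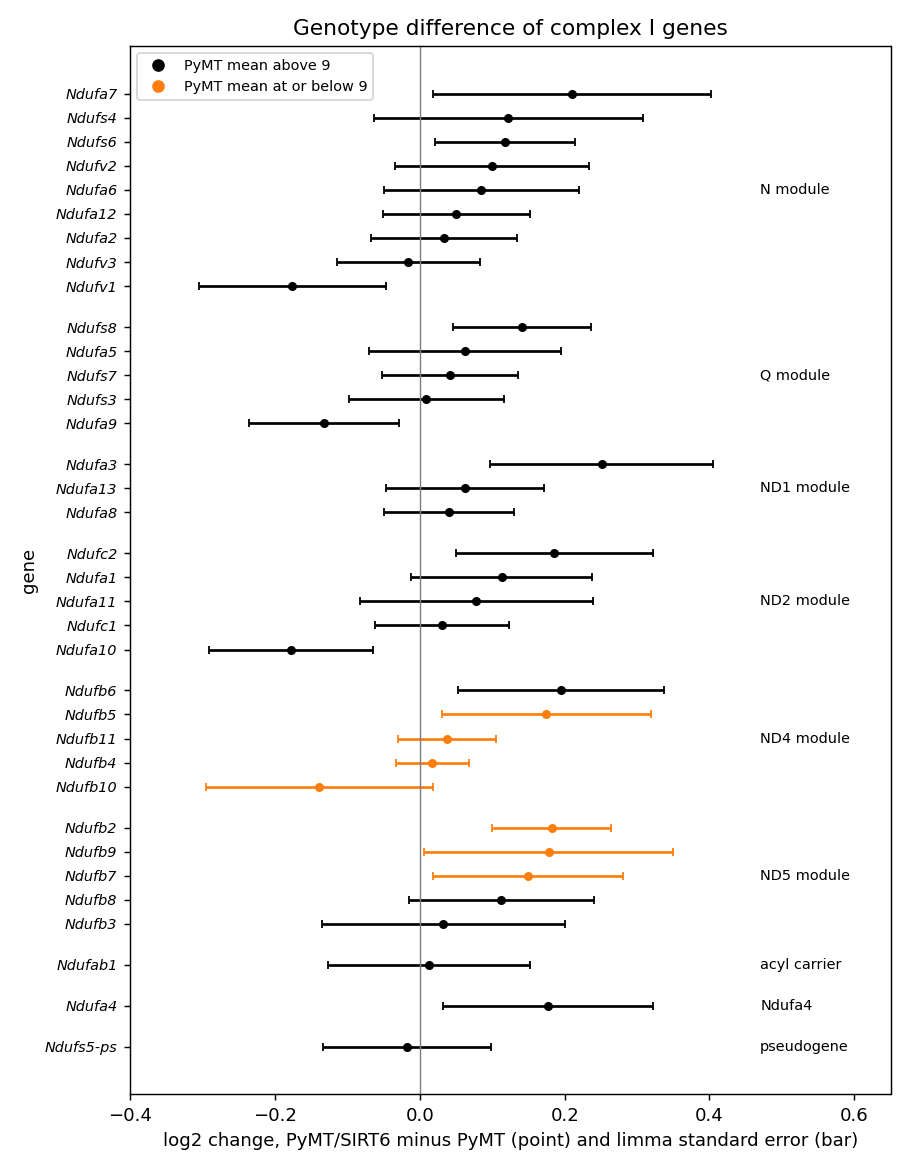
Log2 difference (PyMT/SIRT6 minus PyMT) for each tested complex I gene, by module, with limma's standard error as bars. Orange marks genes whose PyMT mean is at or below 9, and the points run from −0.18 for Ndufa10 and Ndufv1 to 0.25 for Ndufa3.

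The median hid a split among the PyMT/SIRT6 tumours. In 22 of the 35 members (62.9%) exactly 4 of the 5 PyMT/SIRT6 arrays lay above the PyMT median, where 17.8% of all features did so. PyMT/SIRT6 replicate 2 was singled out as low in these same members. Larger differences without it therefore follow from that choice, and the counts are a description. Without it the median difference of the members was 0.169. Unadjusted p was under 0.05 in 12 members (34.3%), all higher, against 8.3% of all features in either direction and 4.01% higher. They were Ndufb8, Ndufb2, Ndufa3, Ndufc2, Ndufs6, Ndufb6, Ndufb9, Ndufb5, Ndufb7, Ndufs4, Ndufa4 and Ndufa7, and 0 of them passed after limma's adjustment (lowest adjusted p = 0.576), where 0.0204% of all features did. With array weights, which limma estimates from these same values, 4 members had an unadjusted p under 0.05, all higher (Ndufa3, Ndufb2, Ndufb6 and Ndufb7), against 9.34% of all features and 4.18% higher. After limma's adjustment 0 passed, where 0.0272% of features did. The weights are no separate measure of array quality, so these counts too are a description. Without PyMT replicate 2 the median was 0.025 and 0 members had an unadjusted p under 0.05. The skeletal muscle markers moved with part of this, being high in PyMT/SIRT6 replicates 1, 4 and 5. Without the 4 arrays with a muscle mean above 9, 11 members were higher and 24 lower with a median of −0.038. That fit kept 5 PyMT arrays and 2 PyMT/SIRT6 arrays, replicates 2 and 3, of which replicate 2 is the lowest in most complex I genes. With the muscle list mean as a covariate on all 11 arrays, 26 members were higher and 9 lower with a median of 0.038. T and NK cell markers were also higher in PyMT/SIRT6 tumours (6 of 6 tested, list means of 7.41 to 7.68 against 7.30 to 7.53), lowest of the PyMT/SIRT6 tumours in replicate 2, and with their mean as a covariate 17 members were higher and 18 lower with a median of −0.009. Macrophage markers were higher in 9 of 9 tested genes (median 0.20), with list means of 9.44 to 9.90 in PyMT/SIRT6 tumours, replicate 2 the lowest, and 9.26 to 9.79 in PyMT tumours. Basal epithelial markers were lower in 8 of 8 (median −0.33), with means of 9.01 to 9.29 in PyMT/SIRT6 and 9.12 to 9.74 in PyMT tumours. Of the remaining marker lists, 7 of 7 fibroblast genes were higher, and 6 of 7 adipocyte, 5 of 7 endothelial, 6 of 9 luminal and 3 of 3 erythroid genes were lower. With an adipocyte covariate 28 members were higher and 7 lower, and the part of the macrophage, epithelial, fibroblast, endothelial and erythroid lists was not tested. PyMT replicate 5, high in muscle markers, had a complex I mean of 11.33, and PyMT/SIRT6 replicate 3, low in muscle markers, had 11.48. These arrays also differ in genotype, and whether muscle content sets the complex I level was not tested.

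**Figure D4:**
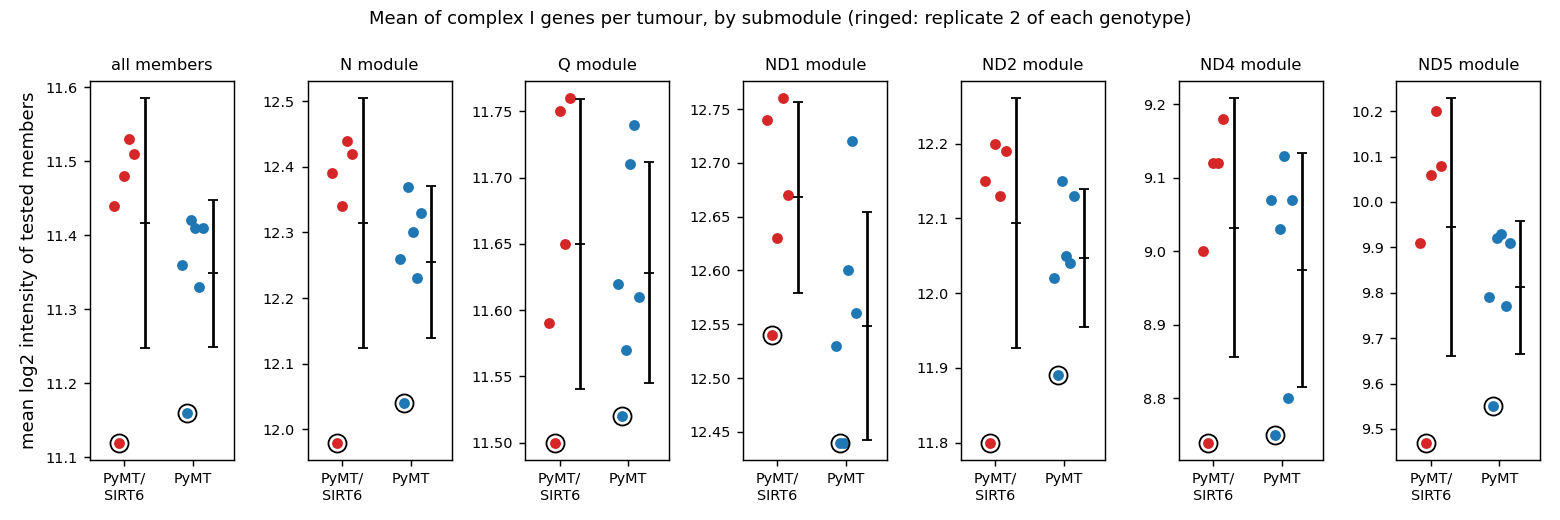
Mean log2 intensity of the tested complex I genes in each tumour, for all members and for each module (PyMT/SIRT6 left, PyMT right; bars are the mean and SD of the group, vertical scales differ). Ringed points are replicate 2 of each genotype, the lowest PyMT/SIRT6 tumour in every panel and the lowest PyMT tumour in all panels but ND1, where replicates 2 and 3 are both at 12.44.

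In the N module 7 of 9 tested members were higher, with a median difference of 0.08. The module mean was 12.39, 11.98, 12.34, 12.44 and 12.42 in PyMT/SIRT6 tumours and 12.04 to 12.37 in PyMT tumours. Ndufa7, a supernumerary subunit, had 12.51, 11.67, 12.18, 12.60 and 12.52 in PyMT/SIRT6 tumours and 11.57 to 12.52 (median 12.14) in PyMT tumours, a difference of 0.21 ± 0.19. Both groups spanned nearly the same range. Ndufs6 differed by 0.12 ± 0.10, with 13.48, 13.11, 13.62, 13.54 and 13.50 in PyMT/SIRT6 tumours and 13.16 to 13.42 (median 13.35) in PyMT tumours, so that every PyMT/SIRT6 tumour but replicate 2 exceeded all PyMT tumours. Ndufv1, the NADH-binding core subunit, had the smallest unadjusted p of the module, with a difference of −0.18 ± 0.13 (limma adjusted p = 0.983). The other differences were 0.12 ± 0.19 for Ndufs4, 0.10 ± 0.13 for Ndufv2, 0.08 ± 0.13 for Ndufa6, an LYR-motif protein, 0.05 ± 0.10 for Ndufa12, 0.03 ± 0.10 for Ndufa2 and −0.02 ± 0.10 for Ndufv3. Ndufs1, the large iron-sulfur core subunit, did not pass the filter: its only probe lay at 7.17 to 7.23 in PyMT/SIRT6 and 7.11 to 7.23 in PyMT tumours, under the limit of 7.309, so its level could not be compared. Ndufv3 has 3 probes, which differed by −0.02, 0.14 and −0.10.

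In the Q module 4 of 5 members were higher, with a median of 0.04. Ndufs8, a core subunit that carries iron-sulfur clusters, had 11.90, 11.63, 11.81, 11.83 and 11.96 in PyMT/SIRT6 tumours and 11.46 to 11.77 (median 11.72) in PyMT tumours, a difference of 0.14 ± 0.10. Here 4 PyMT/SIRT6 tumours again lay above all PyMT tumours. Ndufa9 differed by −0.13 ± 0.10, and none of its 5 PyMT/SIRT6 values (11.89, 12.17, 12.18, 11.90 and 12.11) exceeded the PyMT median of 12.21. Ndufa5 differed by 0.06 ± 0.13. The core subunits Ndufs7, which carries the cluster next to ubiquinone, and Ndufs3 differed by 0.04 ± 0.09 and 0.01 ± 0.11. Ndufs7 and Ndufa12 are the 2 members on chromosome 10, which also carries Sirt6.

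The ND1 module holds the junction of the arms, and its 3 members differed by a median of 0.06. Ndufa3 had the largest difference of all members, 0.25 ± 0.15 or 1.19-fold (limma adjusted p = 0.983). It stood at 12.73, 12.02, 12.41, 12.88 and 12.55 in PyMT/SIRT6 tumours and at 11.93 to 12.52 (median 12.31) in PyMT tumours, and its second probe differed by 0.20 ± 0.18. Ndufa13 differed by 0.06 ± 0.11 and was the only member with all 5 PyMT/SIRT6 arrays above the PyMT median. Ndufa8, a cysteine-rich subunit on the intermembrane side, differed by 0.04 ± 0.09 and varied little, from 11.98 to 12.24 in PyMT/SIRT6 and from 11.93 to 12.25 in PyMT tumours.

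In the ND2 module 4 of 5 members were higher, with a median of 0.08. Ndufc2 had 12.82, 12.27, 12.84, 12.86 and 12.89 in PyMT/SIRT6 tumours and 12.21 to 12.85 (median 12.57) in PyMT tumours, a difference of 0.19 ± 0.14. All PyMT/SIRT6 tumours but replicate 2 sat at the top of the PyMT range. Ndufa10 was the clearest member on the lower side, with 11.55, 11.62, 11.73, 11.39 and 11.59 in PyMT/SIRT6 tumours and 11.48 to 11.98 (median 11.78) in PyMT tumours, a difference of −0.18 ± 0.11. None of its PyMT/SIRT6 values exceeded the PyMT median. The X-linked Ndufa1 differed by 0.11 ± 0.13, Ndufa11 by 0.08 ± 0.16 and Ndufc1 by 0.03 ± 0.09. A dimmer second probe of Ndufc1 differed by 0.22 ± 0.16.

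The ND4 and ND5 modules form the proton-pumping end of the membrane arm, and 7 of their 10 tested probes were dim, with a mean at or below 9 where the filter limit is 7.309. No value on any array is below an intensity of 116.7, so the differences of such probes include this floor. In the ND4 module 4 of 5 members were higher, with a median of 0.04. Ndufb6, the bright member, had 13.17, 12.58, 13.26, 13.24 and 13.03 in PyMT/SIRT6 tumours and 12.58 to 13.10 (median 12.93) in PyMT tumours, a difference of 0.20 ± 0.14, and its dimmer second probe differed by 0.25 ± 0.10. Ndufb5 differed by 0.17 ± 0.14. Ndufb10, a cysteine-rich subunit, had no settled direction: its kept probe differed by −0.14 ± 0.16 and its second by 0.23 ± 0.13, and the 2 probes correlated at −0.30. Ndufb11, also X-linked, and Ndufb4 lay at 7.53 to 7.90 and 7.36 to 7.52 in PyMT/SIRT6 tumours and at 7.49 to 7.69 and 7.28 to 7.52 in PyMT tumours, close to the limit, and differed by 0.04 ± 0.07 and 0.02 ± 0.05.

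All 5 ND5 members were higher, with a median of 0.15. With the lower 75% of features left out, the median was 0.131 in the ND5 module and 0.175 in the ND4 module, against 0.149 and 0.037 with the filter used here, so their order depends on the filter. The module mean was 9.91, 9.47, 10.06, 10.20 and 10.08 in PyMT/SIRT6 tumours and 9.55 to 9.93 in PyMT tumours. Ndufb2 had 7.76, 7.74, 8.06, 8.03 and 8.12 in PyMT/SIRT6 tumours and 7.62 to 7.85 (median 7.80) in PyMT tumours, and its difference of 0.18 ± 0.08 had an unadjusted limma p of 0.0443 (adjusted p = 0.983). Replicates 3, 4 and 5 of PyMT/SIRT6 lay above all PyMT tumours and replicates 1 and 2 within their range, while the dimmer second probe of Ndufb2, at a mean of 7.24, differed by 0.00 ± 0.03. Ndufb9 had 8.27, 7.75, 8.58, 8.78 and 8.66 in PyMT/SIRT6 tumours and 7.93 to 8.48 (median 8.26) in PyMT tumours, a difference of 0.18 ± 0.17. Ndufb7 differed by 0.15 ± 0.13, Ndufb8 by 0.11 ± 0.13 and Ndufb3 by 0.03 ± 0.17. Ndufb8 shows the single low tumour plainly, with 13.41, 12.74, 13.38, 13.44 and 13.39 in PyMT/SIRT6 tumours against 13.01 to 13.30 (median 13.17) in PyMT tumours.

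Outside the modules, Ndufab1, the mitochondrial acyl carrier protein that serves complex I and fatty acid synthesis, differed by 0.01 ± 0.14, with 12.43 to 12.93 in PyMT/SIRT6 and 12.53 to 13.25 in PyMT tumours. Its 3 further probes differed by 0.10, −0.03 and 0.01. Ndufa4 had 13.92, 13.31, 13.91, 13.99 and 13.72 in PyMT/SIRT6 tumours and 13.33 to 13.93 (median 13.53) in PyMT tumours, a difference of 0.18 ± 0.14, and correlated with the mean of the other members at 0.81. The pseudogene Ndufs5-ps differed by −0.02 ± 0.12, and whether its probe also detects Ndufs5 RNA was not tested. In all, 14 members had several probes, and 15 of the 19 further probes had the sign of the kept one. The 36 members lie on 15 chromosomes.

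Genes that act with the nuclear subunits gave 0 calls as well. Of 17 tested assembly factors 11 were higher and 6 lower, with a median of 0.04. The smallest unadjusted p belonged to Ndufaf8 (0.22 ± 0.16), Dmac1 (0.22 ± 0.16) and Foxred1 (−0.15 ± 0.11). Their list mean was 8.77, 8.48, 8.81, 8.81 and 8.80 in PyMT/SIRT6 tumours and 8.53 to 8.84 in PyMT tumours, PyMT/SIRT6 replicate 2 again being the lowest. All 4 tested ND genes of the mitochondrial genome were higher, with a median of 0.41 and ND5 at 0.46 ± 0.17 (limma unadjusted p = 0.019, adjusted p = 0.983). Their tumour pattern was another one: the list mean of 5 genes was 9.84 to 10.14 in all PyMT/SIRT6 tumours, replicate 2 included, and 10.03 to 10.06 in PyMT replicates 4, 5 and 6, but 9.57, 9.45 and 9.16 in PyMT replicates 1, 2 and 3. ND6 did not pass the filter. Of the regulators of mitochondrial biogenesis 5 were higher and 6 lower, with the coactivator gene Ppargc1a at −0.05 ± 0.05, the factor gene Nrf1 at −0.08 ± 0.09 and Gabpb1, a GABP subunit, at −0.10 ± 0.09.

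**Figure D5:**
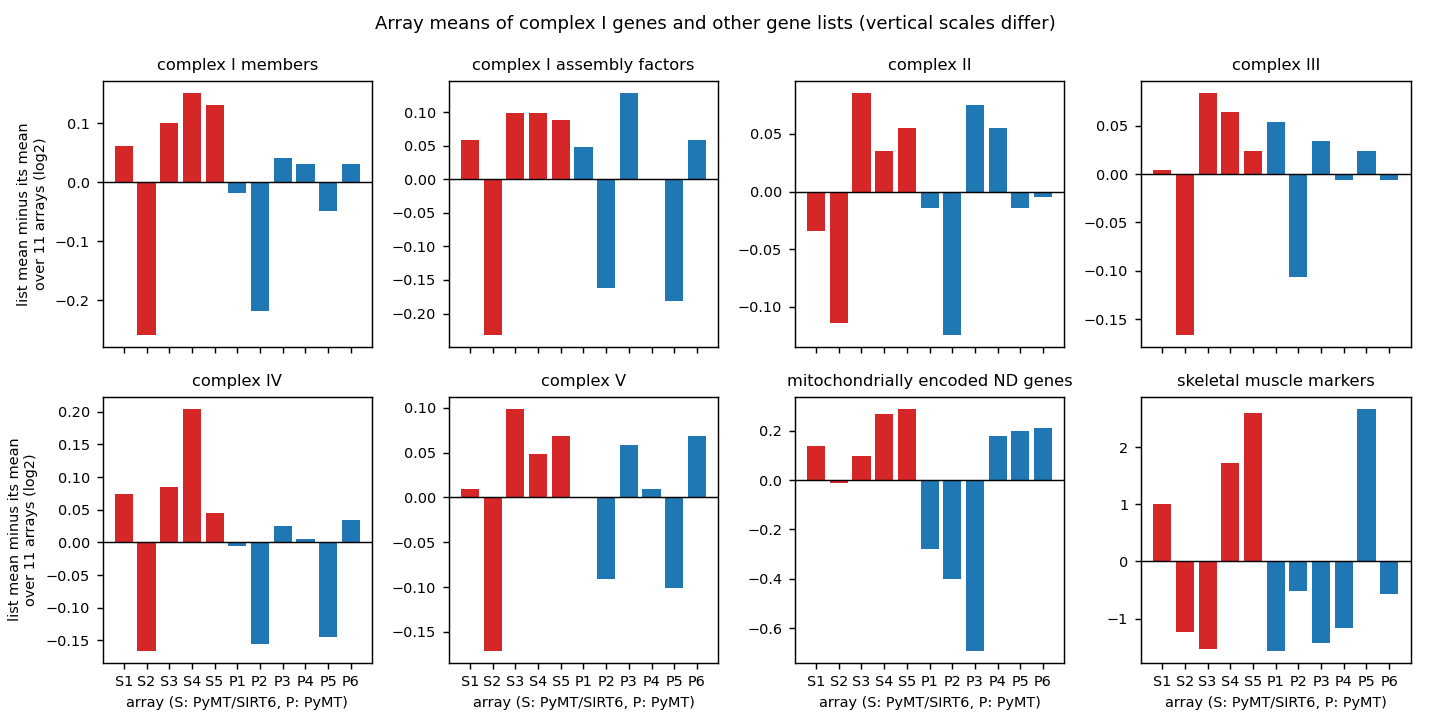
Mean of complex I members and of other gene lists in each tumour, as the deviation from the list's mean over the 11 arrays (S, PyMT/SIRT6 in red; P, PyMT in blue; vertical scales differ). Tumours S2 and P2 are the lowest pair for complex I members, complexes II, III and IV, and not for the mitochondrially encoded ND genes, where P1, P2 and P3 are low.

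The other respiratory complexes had 0 calls. The median difference was −0.01 in complex II (1 of 3 higher), 0.04 in complex III (5 of 7), 0.06 in complex IV (8 of 8) and 0.03 in complex V (9 of 14). Uqcr11 of complex III (0.20 ± 0.09) and Cox7a2 of complex IV (0.28 ± 0.13) both had an unadjusted p under 0.05, and Uqcrc2, a core protein of complex III, was at −0.21 ± 0.11 and Atp5j of complex V at 0.18 ± 0.09. Complexes II, III and IV had their lowest means in PyMT/SIRT6 replicate 2 and PyMT replicate 2, as complex I did. In complex IV these were 11.39 and 11.40. In complex V PyMT/SIRT6 replicate 2 (11.53) was the lowest, followed closely by PyMT replicates 5 (11.60) and 2 (11.61). The muscle isoforms of complex IV followed the muscle markers instead, with means of 9.95, 8.30, 8.49, 10.58 and 11.17 in PyMT/SIRT6 tumours and 8.03 to 11.36 in PyMT tumours.

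The genes outside the membership most like the mean of the members over the 11 arrays were Grpel1 (r = 0.96), a cochaperone of mitochondrial protein import, the complex I assembly factor Ndufaf5 (0.96), Hint3 (0.96), the cytochrome c gene Cycs (0.96), Coa6 (0.96), an assembly factor of complex IV, Rps3a1 (0.94), Tmem126a (0.94), the mitochondrial ribosomal gene Mrpl50 (0.94), Nudt19 (0.94) and Cnpy2 (0.94). Among the 100 most alike of 11333 genes, 12 were mitochondrial ribosomal proteins, 3 complex I assembly factors, 2 cytosolic ribosomal proteins and 0 of the 32 listed subunits of complexes II to V. The complex V subunit gene Atp5mpl, which that list does not hold and which was named after its value was seen, ranked 67 (r = 0.89). The listed families made up 0.635%, 0.15%, 0.512% and 0.282% of all ranked genes. Other genes ran as strongly against the mean of the members, led by Exoc6b (r = −0.97), Mtch1 (−0.97) and Pja1 (−0.96).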

How the data were processed

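Gene expression was measured in 11 mammary tumours on Illumina Mouse WG-6 v2.0 arrays, from RNA amplified to biotinylated cRNA, per the labels' protocols. What the authors deposited is a linear intensity for each probe. How they treated background and normalized is not stated by the labels. Sorted values agreed within 1.08% between arrays, so no scaling was added. Groups follow the genotype label, and replicate numbers only name arrays, in deposit order. Nothing says that each tumour is from a different mouse, so a p-value here reflects the spread of these tumours, which may be partly technical. The count of arrays sets the precision.

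Of 45281 probes, 34885 had a single gene symbol, 18 several and 10378 none in the platform annotation. For each gene the probe with the highest mean was kept (29453 features with unnamed probes), and the lower 50% by mean were left out (limit 7.309 on the log2 scale, intensity 158.6). The fit used limma 3.58.1 under R 4.3.3 (lmFit, eBayes with intensity trend) on log2 values, with Benjamini-Hochberg adjustment over 14726 features and a threshold of 0.05. The fit was tested on simulated data with independent features and inserted changes larger than the differences of the complex I genes. That test therefore does not bear on differences of their size or on genes that move together. Array, list and correlation values were computed in Python 3.11.15.

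The members and gene lists were chosen with earlier results of these data known. Named genes were, per module, the 3 members of smallest unadjusted p, the 5 of largest SD, the 5 of highest and 5 of lowest correlation with the other members, Ndufa4, Ndufab1 and untested members, up to 3 genes per further list, and the 10 most alike genes; other members are given more briefly. Alternatives covered the filter, probe choice, array centring, background, variance prior, array weights, deposit order, marker covariates and left-out arrays.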

Additional observations from a re-analysis of the deposited data

Results flagged for a closer look

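In groups of 5 and 6 arrays, 66 sets of values (module means and named genes in each genotype) were searched for a single array set apart by a large gap, and 11 were found, where chance gives about 1 in 20. PyMT/SIRT6 replicate 2 accounted for 8 of them. It was low in the mean of all members (11.12), the N module (11.98), the ND2 module (11.80), Ndufa5 (11.57), Ndufc2 (12.27), Ndufs4 (11.52) and Ndufs6 (13.11), and high in Ndufa13 (13.60). PyMT replicate 2 was low in the mean of all members (11.16) and in Ndufs8 (11.46). PyMT/SIRT6 replicate 4 was low in Ndufs1 (7.17), a probe under the filter limit. These genes co-vary, so the flags are not independent of each other. The named genes were chosen partly for wide spread or for their correlation with the other members. The chance rate of 1 in 20 therefore does not hold for them, and the flags are a description.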

How the results depend on the processing

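No complex I member was called under any alternative run. No paired analysis was possible because the labels carry no replicate numbers. The number of features called, 2, became 4 with the mean of each gene's probes, with array weights or with normexp, 1 with deposit order as a block or an adipocyte covariate, 0 when the muscle-high arrays were left out, and 1 to 3 with 1 array left out. Members at an unadjusted p under 0.05, 1, became 0 with the lower 75% left out, the mean of probes, a skeletal muscle or T and NK cell covariate, or the muscle-high arrays left out, 4 with array weights, and 0 to 12 with 1 array left out. The median change (0.063) lay between −0.038 and 0.133, and between 0.025 and 0.169 with 1 array left out. With the lower 75% left out the ND4 median was 0.175. The Q module median was −0.125 with the T and NK cell covariate, and the N and ND5 medians were −0.126 and −0.096 without the muscle-high arrays. With 1 array left out the medians were 0.025 to 0.199 (N), 0.009 to 0.09 (Q), 0.042 to 0.119 (ND1), 0.014 to 0.195 (ND2), −0.005 to 0.064 (ND4) and 0.085 to 0.246 (ND5), and the median pairwise correlation was 0.365 to 0.633. The number of the 35 members that changed sign was 2 with the mean of probes, 3 with array weights, 3 with the muscle covariate, 1 with the adipocyte covariate, 16 with the T and NK cell covariate, 22 without the muscle-high arrays and 0 to 4 with 1 array left out. Among the members that the naming rule selects, these were Ndufb10 0.044 with the mean of probes; Ndufs3 −0.006 with array weights; Ndufa5 −0.012, Ndufb3 −0.011 and Ndufs3 −0.003 with the muscle covariate; Ndufab1 −0.003 with the adipocyte covariate. With the T and NK cell covariate they were Ndufa1 −0.094, Ndufa5 −0.125, Ndufa8 −0.013, Ndufb3 −0.146, Ndufb7 −0.009, Ndufb9 −0.032, Ndufs3 −0.138, Ndufs4 −0.032 and Ndufv2 −0.02. Without the muscle-high arrays, a setting chosen after seeing the data like normexp, they were Ndufa1 −0.004, Ndufa4 −0.02, Ndufa5 −0.006, Ndufa7 −0.166, Ndufa8 −0.001, Ndufa9 0.011, Ndufab1 −0.2, Ndufb3 −0.216, Ndufb5 −0.017, Ndufb9 −0.108, Ndufc2 −0.012, Ndufs4 −0.284, Ndufv1 0.074 and Ndufv2 −0.141. With 1 array left out, the sign changes among these members were in Ndufa13, which ranged from −0.003 to 0.119, Ndufab1 from −0.031 to 0.113, Ndufb3 from −0.075 to 0.169 and Ndufs3 from −0.046 to 0.079. The cause of these changes was not tested, and the fit without the muscle-high arrays kept only replicates 2 and 3 of PyMT/SIRT6. Co-variation was not recomputed where only the test or background differs. Signal near the filter limit restricts Ndufs1, Ndufb4, Ndufb11 and Ndufb2, and also the T and NK cell covariate.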
